A study of Mus musculus with 203 samples.

Results

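The interferon-inducible GTPases were examined as a family of 10 genes, taken by symbol with earlier results of these data known. They are the guanylate-binding proteins Gbp2, Gbp3, Gbp4, Gbp5 and Gbp7 and the immunity-related GTPases Irgm1, Irgm2, Igtp, Iigp1 and Tgtp1. All 10 symbols had a row among the 25094 genes of the RAW cell table, and all 10 among the 16478 genes of the table for bone marrow-derived macrophages (BMDMs). The study asked how the corepressor subunit GPS2 and the histone demethylase KDM1A shape the response of mouse macrophages to interleukin 4 (IL4). RAW cells (RAW264.7, a mouse macrophage cell line, labelled BALB/c) were compared in 4 groups of 4 libraries. The sample labels name RAW cells as the source and were followed here, although a legend in the study calls the knockdown cells BMDMs. shGFP cells carried a hairpin against GFP and shKDM1A cells a hairpin against Kdm1a. Each was measured as untreated control and after 20 ng/ml of IL4 for 6 h. Both hairpins were delivered by lentivirus and both lines were selected with puromycin, so each arm is 1 stable line with 1 hairpin. A change that belongs to the line cannot be told apart from one that belongs to the loss of Kdm1a. The BMDMs came from WT and macrophage-specific Gps2 KO mice on a C57BL/6 background, with 4 libraries per genotype and treatment. Their table gives only the authors' own comparisons and no value per library, so no BMDM value is reported.

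Interferon-inducible GTPases are effectors of cell-autonomous immunity. Interferon-γ acts on their promoters through GAS elements and through the induced factor IRF1, and type I interferon acts through a complex with STAT2 and IRF9 that binds interferon-stimulated response elements (ISREs). Guanylate-binding proteins coat the vacuoles of bacteria and parasites and help to expose their contents to caspases. Among the immunity-related GTPases, Iigp1 and Tgtp1 are effectors that load onto pathogen vacuoles, while Irgm1, Irgm2 and Igtp are regulators that reside on the membranes of the cell itself and keep the effectors off them. In macrophages these genes are classical markers of interferon-γ activation, and IL4 drives the opposing alternative activation through STAT6.

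Most members lie near other members. In the coordinates of the RAW table (mm9), Gbp5 (chr3:142159898-142185308), Gbp7 (chr3:142193300-142213115), Gbp3 (chr3:142223008-142236177) and Gbp2 (chr3:142283627-142300972) follow each other on the plus strand of chromosome 3. Gbp4 is at chr5:105544786-105568605 on the minus strand. On chromosome 11, Irgm1 (chr11:48678747-48684922) and Tgtp1 (chr11:48798831-48805748) lie on the minus strand, and Igtp (chr11:58013058-58021094) and Irgm2 (chr11:58028479-58036285) are neighbours on the plus strand.

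Promoter sequence is shown for the 5 members with the largest differences between the lines. They are annotated starts, and the counts per gene do not show which start was used. Each window holds 110 bases before and 10 bases after a RefSeq transcript start in GRCm38.p6, a later build than mm9, so these coordinates are not interchangeable with those above. The windows are chr11:48871411-48871530 on the minus strand for Irgm1, and on the plus strand chr11:58214867-58214986 for Irgm2, chr11:58199446-58199565 for Igtp, chr3:142530226-142530345 for Gbp7 and chr3:142559934-142560053 for the first of 2 starts of Gbp3. Sequences read 5′ to 3′ along the transcript. Capitals mark matches, on either strand, to GAS (TTCNNNGAA) or to the core of an ISRE (GAAANNGAA).
Irgm1: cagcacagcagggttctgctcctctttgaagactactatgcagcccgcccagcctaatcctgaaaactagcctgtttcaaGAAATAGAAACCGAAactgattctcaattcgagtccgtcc
Irgm2: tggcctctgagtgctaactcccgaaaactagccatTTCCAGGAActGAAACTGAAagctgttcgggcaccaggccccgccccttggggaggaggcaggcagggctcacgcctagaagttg
Igtp: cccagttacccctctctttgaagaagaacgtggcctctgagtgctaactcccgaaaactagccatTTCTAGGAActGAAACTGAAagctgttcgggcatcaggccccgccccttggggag
Gbp7: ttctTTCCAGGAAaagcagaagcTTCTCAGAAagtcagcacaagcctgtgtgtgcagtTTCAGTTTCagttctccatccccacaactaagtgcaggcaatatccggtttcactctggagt
Gbp3: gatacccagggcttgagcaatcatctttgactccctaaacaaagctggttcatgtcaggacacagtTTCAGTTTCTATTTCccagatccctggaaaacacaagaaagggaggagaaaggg

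Of the 10 members, 8 had a promoter in the RefSeq table of 32851 promoters, each with 250 bases before and 50 after the start. All 8 had an ISRE match, which 8.56% of all promoters had. In Irgm1 and in the first Gbp3 promoter a pair of ISRE matches overlapped. A GAS match was present in 5 of the 8, Gbp5, Gbp7, Igtp, Irgm2 and Tgtp1, against 8.30% of all promoters. In Igtp, Irgm2 and Tgtp1 the first base of the ISRE match lay 11 bases after that of the GAS match. This spacing was held by 9 of the 32851 promoters (0.0274%), which include those of these genes. It was not among the planned motifs, so its rarity is a description only. The Irgm2 and Igtp promoters, lined up at the GAS match, were identical at 184 of 270 bases, with a longest identical run of 61 bases, so they do not count as separate instances. The half-sites of GAS set 1 base farther apart, the spacing STAT6 prefers, were present only in the second Gbp3 promoter among the members' 9 promoters, against 6.95% of all promoters. These are matches of letters, and no binding was measured here.

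**Figure D1:**
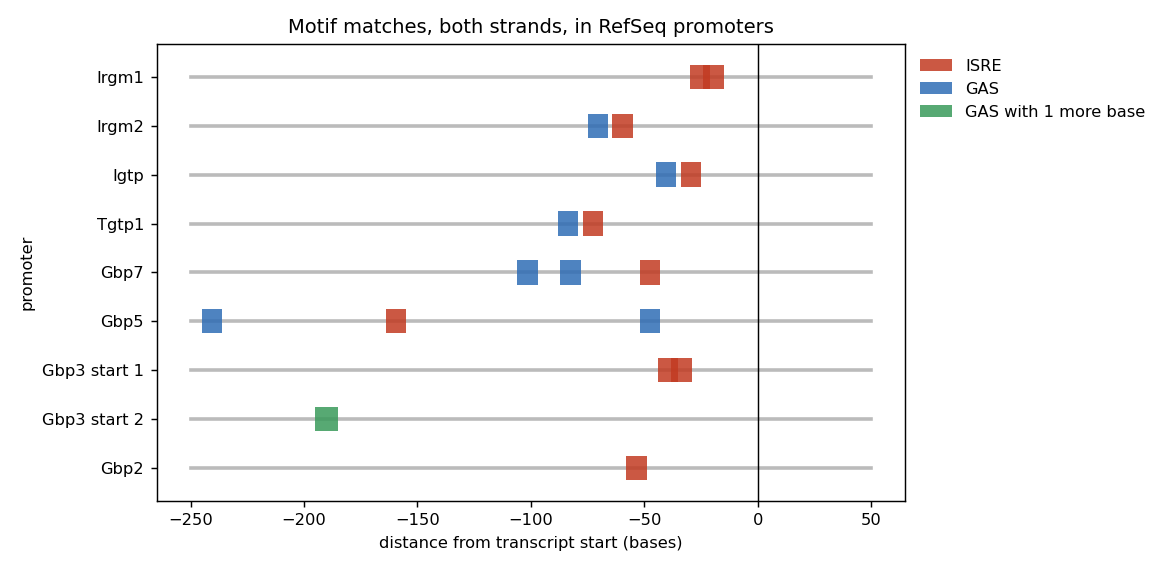
Motif matches on either strand in the 9 promoters of the 8 members found in the RefSeq table. The x axis is the distance from the transcript start in bases (250 before to 50 after) and each row is 1 promoter. ISRE matches stand in all 8 members, and GAS matches in 5 of them.

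Each RAW value is a log2 value whose transformation is not named. The range of a member's libraries within a group lay between 0.000917 and 0.225 and was smallest in each of the 4 groups for Tgtp1, the weakest member. The file headers name DESeq2, which offers log2 values shrunk towards a gene's mean, but not whether these are such values. Differences and folds below are on the deposited scale and may be shrunken, those of weakly expressed genes most, which was not tested. Totals ranged from 17554721 to 27782568 tags over the 16 libraries. Kdm1a itself was 11.21, 11.23, 11.13 and 11.17 in shGFP control cells and 10.36, 10.32, 10.23 and 10.29 in shKDM1A control cells. With IL4 it was 11.12, 11.10, 11.12 and 11.07 in shGFP cells and 10.32, 10.33, 10.34 and 10.28 in shKDM1A cells. All shKDM1A libraries were below all shGFP libraries. The difference was -0.88 (95% interval -0.94 to -0.82, adjusted p = 5.62e-13, limma) without IL4 and -0.79 (-0.85 to -0.73, adjusted p = 2.2e-12) with IL4, or 0.542 and 0.58 of the shGFP level. The 8 macrophage markers all passed the filter on low values. All 8 differed between the lines, 5 higher and 3 lower without IL4 and 6 higher and 2 lower with IL4. Over all tested genes 19.7% were higher and 18.4% lower without IL4, and 20.9% and 19.8% with it. The log2 of the markers' summed level was 17.63 to 17.68 in shGFP control and 17.31 to 17.33 in shGFP IL4 libraries. It was 17.83 to 17.86 in shKDM1A control and 17.74 to 17.83 in shKDM1A IL4 libraries. Lyz2 was the highest marker in every group, with a mean of 16.90 in shGFP control, so it weighed most in the sum. With IL4 in shGFP cells 2 markers were higher, Adgre1 by 1.24 and Csf1r by 0.26. Lower were 3, Cd14, Lyz2 and Fcgr1, at -0.93, -0.53 and -0.12. Of 18 markers of other cells, 2 passed the filter (Zbtb46 and Xcr1) and 8 were at 0 in all libraries. Their summed level was 5.00 to 5.03, 5.00 to 5.07, 4.99 to 5.03 and 4.97 to 5.03 in the same order of groups, and their part in the results was not tested. The samples are cultures of a cell line, and bulk values cannot tell a change in all cells from one in a part of them.

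The members spanned a wide range of levels. Per 1000 bases of transcript, the log2 level in shGFP control cells was highest for Irgm1, at 8.75 ± 0.04 (SD, n = 4), followed by Igtp at 7.11 ± 0.06 and Irgm2 at 6.36 ± 0.04. Then came Gbp3 at 3.61 ± 0.07, Gbp7 at 3.53 ± 0.08, Gbp2 at 2.43 ± 0.01, Gbp5 at 1.27 ± 0.03 and Iigp1 at 0.73 ± 0.02. Gbp4, at -1.59, and Tgtp1, at -2.67, were lowest. The 3 regulators on chromosome 11 thus stood far above the vacuole-coating effectors in resting RAW cells. Irgm1 exceeded 68.8% of all tested genes per length, Gbp3 14.9% and Iigp1 3.91%. Neighbours in this order did not overlap in their libraries except Gbp3 and Gbp7, which overlapped in shGFP control, shKDM1A control and shKDM1A IL4 cells and changed places in shKDM1A control cells. In shGFP IL4 cells they lay 0.00376 apart.

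**Figure D2:**
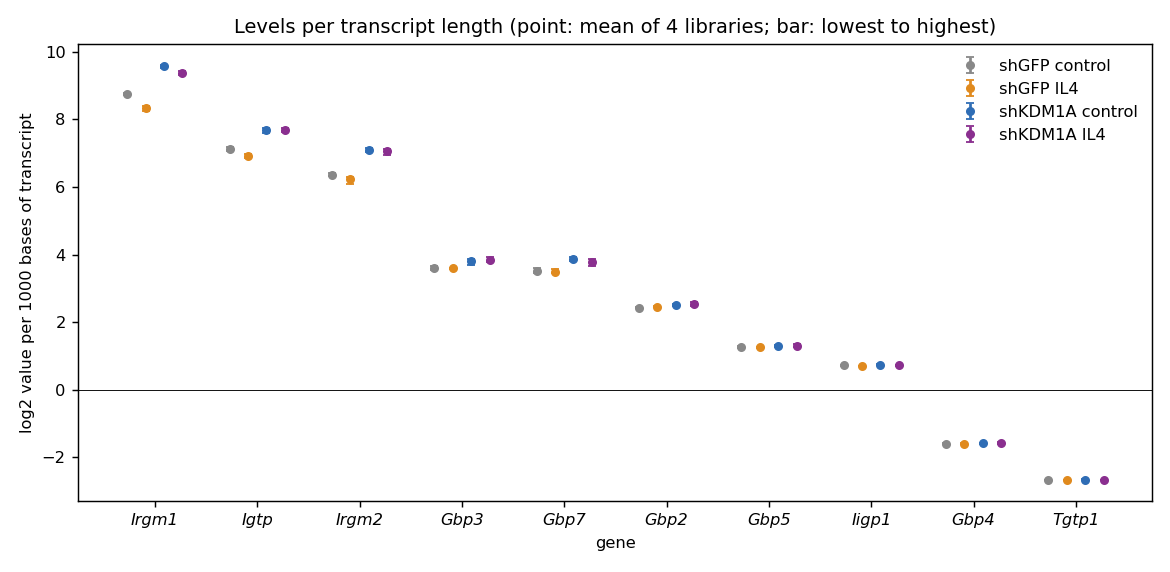
Log2 value per 1000 bases of transcript (y axis) for the 10 members (x axis) in the 4 RAW groups. Points are means of 4 libraries and bars run from the lowest to the highest library. Irgm1, Igtp and Irgm2 sit above 6 in all groups, and Gbp4 and Tgtp1 sit below 0.

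Gbp4 and Tgtp1 did not reach a value of 1 in 4 libraries and were not among the 12905 genes tested. Gbp4 lay between 0.55 and 0.58 and Tgtp1 between -1.18 and -1.16 over the 16 libraries, with almost no spread between libraries. Without the filter neither was called in any comparison. The row of Tgtp1 has a near-identical neighbour, Tgtp2, and how reads were divided between them is not known. Tgtp2, named here after its values were seen, was 3.10, 3.09, 3.10 and 3.09 in shGFP control and 3.19, 3.21, 3.33 and 3.24 in shKDM1A control cells, a difference of 0.15 (0.09 to 0.21, adjusted p = 4.45e-04).

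In untreated cells, 6 of the 8 tested members were higher in shKDM1A than in shGFP cells and 0 were lower. Over all tested genes 19.7% were higher and 18.4% lower. The members' median difference was 0.27 on the log2 scale, and that of all tested genes was -0.00275. At an unadjusted p under 0.05 the counts were also 6 and 0. The 3 regulators changed most.

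Irgm1, which protects the membranes of the cell and promotes autophagy, was 9.91, 9.92, 9.98 and 9.98 in shGFP control cells and 10.82, 10.76, 10.72 and 10.80 in shKDM1A control cells. The lowest shKDM1A library lay 0.736 above the highest shGFP library. The difference was 0.83 (95% interval 0.75 to 0.91, adjusted p = 3.35e-11), or 1.77-fold (1.68 to 1.87), and ranked 73 from the top of 12905 genes.

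Irgm2, a second regulator, was 8.14, 8.15, 8.23 and 8.16 in shGFP control and 8.87, 8.85, 8.89 and 8.96 in shKDM1A control cells. Its groups were apart by 0.616. The difference of 0.72 (0.63 to 0.82, adjusted p = 1.67e-09), or 1.65-fold, ranked 93. Igtp, also known as Irgm3, was 8.06, 8.15, 8.08 and 8.19 in shGFP control and 8.69, 8.62, 8.76 and 8.69 in shKDM1A control cells. Here too all shKDM1A libraries were the higher ones. The difference was 0.57 (0.49 to 0.65, adjusted p = 2.48e-09), or 1.49-fold, at rank 178.

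Guanylate-binding proteins differed less. Gbp7 was 5.95, 6.09, 6.07 and 5.94 in shGFP control and 6.41, 6.35, 6.32 and 6.31 in shKDM1A control cells. These groups did not overlap, and the difference was 0.34 (0.24 to 0.43, adjusted p = 2.46e-05). Gbp3 was 5.16, 5.17, 5.03 and 5.07 in shGFP control and 5.32, 5.34, 5.20 and 5.37 in shKDM1A control cells. The nearest libraries were 0.0303 apart, and the difference was 0.20 (0.12 to 0.28, adjusted p = 5.58e-04). Gbp2 was 3.73, 3.72, 3.71 and 3.71 in shGFP control and 3.80, 3.77, 3.83 and 3.81 in shKDM1A control cells, a difference of 0.09 (0.04 to 0.13, adjusted p = 0.00675). Gbp5, which promotes inflammasome assembly, differed by 0.02 (-0.03 to 0.06, adjusted p = 0.54), and the vacuole effector Iigp1 by 0.01 (-0.02 to 0.05, adjusted p = 0.536). The libraries of both overlapped between the lines.

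Groups did not overlap for the same 6 members, all in the upward direction, against 19.6% of all tested genes. With a log2 difference over 0.5 also required, 3 members were left, Irgm1, Irgm2 and Igtp, against 1.98% of all tested genes. The order of the 8 differences, from Irgm1 down to Iigp1, was also the order of the deposited values in shGFP control cells. How far that order reflects the scale of the values was not tested.

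**Figure D3:**
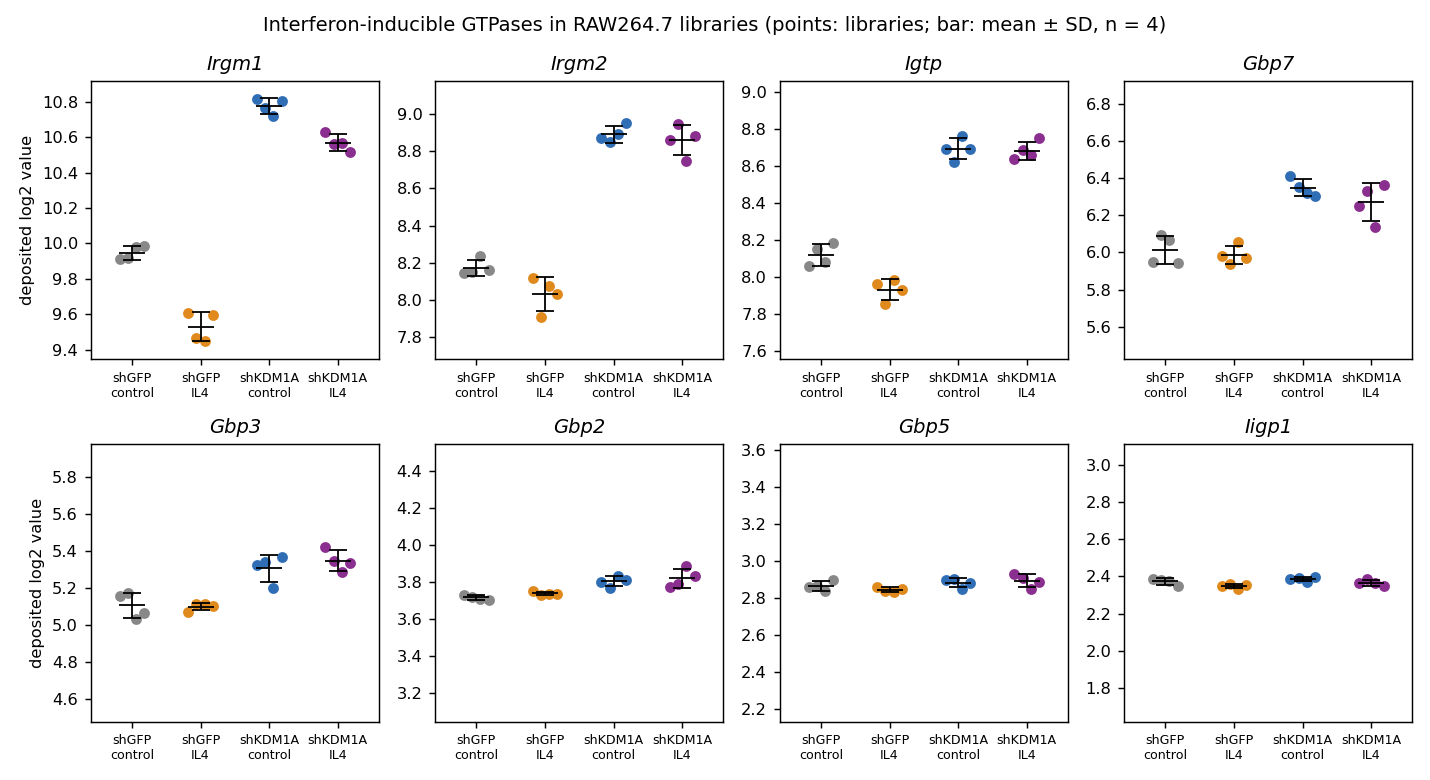
Deposited log2 values (y axis) of the 8 tested members in the 16 RAW libraries, by group (x axis). Points are libraries, and bars give the mean and SD of 4. Panels stand at different heights and span the same length of scale, except a slightly longer one for Irgm1. For Irgm1 the shKDM1A libraries lie between 10.52 and 10.82 and the shGFP libraries between 9.45 and 9.98.

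With IL4, the same 6 members were higher in shKDM1A cells and 0 were lower, against 20.9% and 19.8% of all tested genes. This comparison uses other libraries than the one without IL4. The median difference of the members was 0.27, against -0.0024 over all tested genes, and at an unadjusted p under 0.05 the counts were 7 and 0. Groups did not overlap for 6 members, against 19.0% of genes. A log2 difference over 0.5 was again found for Irgm1, Irgm2 and Igtp, against 1.88% of genes.

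Irgm1 was 9.61, 9.47, 9.45 and 9.60 in shGFP IL4 cells and 10.63, 10.56, 10.57 and 10.52 in shKDM1A IL4 cells. The gap between the groups was 0.911 and the difference 1.04 (0.96 to 1.12, adjusted p = 2.09e-12), or 2.05-fold (1.94 to 2.17), at rank 38. Irgm2 was 8.12, 7.90, 8.07 and 8.03 in shGFP IL4 and 8.86, 8.95, 8.75 and 8.88 in shKDM1A IL4 cells, a difference of 0.83 (0.73 to 0.92, adjusted p = 3.16e-10) or 1.78-fold. Igtp was 7.96, 7.86, 7.98 and 7.93 in shGFP IL4 and 8.64, 8.69, 8.66 and 8.75 in shKDM1A IL4 cells, a difference of 0.75 (0.67 to 0.83, adjusted p = 8.9e-11) or 1.68-fold. For all 3 regulators each shKDM1A library exceeded each shGFP library.

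Gbp7 was 5.98, 5.94, 6.06 and 5.97 in shGFP IL4 and 6.25, 6.33, 6.14 and 6.36 in shKDM1A IL4 cells, a difference of 0.29 (0.19 to 0.38, adjusted p = 1.26e-04). Gbp3 was 5.07, 5.11, 5.11 and 5.10 in shGFP IL4 and 5.42, 5.35, 5.29 and 5.34 in shKDM1A IL4 cells, a difference of 0.25 (0.17 to 0.33, adjusted p = 7.11e-05). Gbp2 was 3.75, 3.73, 3.74 and 3.73 in shGFP IL4 and 3.77, 3.79, 3.89 and 3.83 in shKDM1A IL4 cells, a difference of 0.08 (0.03 to 0.13, adjusted p = 0.0101). Libraries of these 3 genes did not overlap between the lines. Gbp5 differed by 0.05 (0.00 to 0.09, adjusted p = 0.0806) and Iigp1 by 0.02 (-0.02 to 0.05, adjusted p = 0.441). Without replicate 3 of the shKDM1A IL4 group the Gbp5 difference was 0.06 and passed the threshold (adjusted p = 0.0257).

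**Figure D4:**
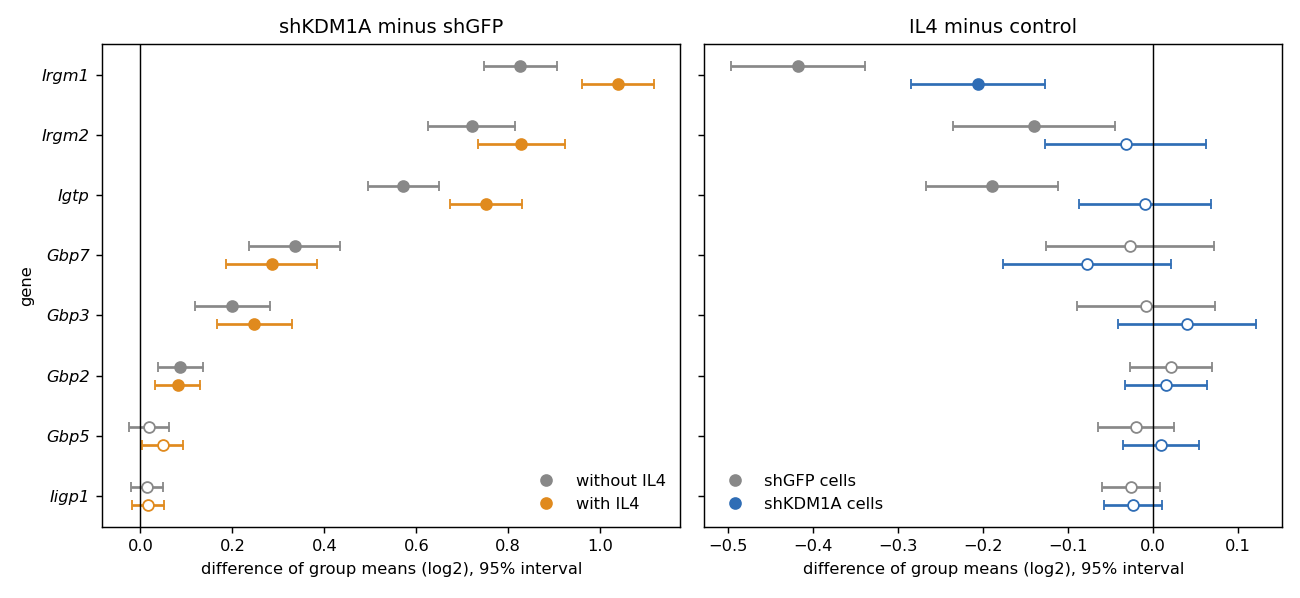
Differences of group means on the log2 scale (x axis, with 95% intervals from limma) for the 8 tested members (y axis). The left panel gives shKDM1A minus shGFP and the right panel IL4 minus control. Filled points had an adjusted p under 0.05, which 6 members had in each comparison of the lines.

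With IL4 alone, the members that changed fell. In shGFP cells 3 of 8 tested members were lower with IL4 and 0 were higher, against 13.7% and 13.1% of all tested genes, and the counts at an unadjusted p under 0.05 were also 3 and 0. Groups did not overlap for these 3, against 14.4% of genes in this direction. The same shGFP libraries also enter the comparisons of the lines. Irgm1 fell by 0.42 (-0.50 to -0.34, adjusted p = 2.5e-07), to 0.749 of its control level, and all IL4 libraries lay at least 0.304 below the control libraries. Igtp fell by 0.19 (-0.27 to -0.11, adjusted p = 9.83e-04). Irgm2 fell by 0.14 (-0.23 to -0.04, adjusted p = 0.029). The Irgm2 call was lost without shGFP control replicate 3 (adjusted p = 0.087) or 4 (0.0506) and without shGFP IL4 replicate 2 (0.101) or 4 (0.055). Gbp7, Gbp3, Gbp5 and Iigp1 differed by -0.03, -0.01, -0.02 and -0.03 and Gbp2 by 0.02, with adjusted p from 0.285 to 0.925, and their groups overlapped.

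In shKDM1A cells IL4 lowered 1 of 8 tested members, Irgm1, and raised 0, against 13.5% and 13.6% of all tested genes. The counts at an unadjusted p under 0.05 were the same. Groups were apart for Irgm1 only, against 12.7% of genes. Irgm1 fell by 0.21 (-0.28 to -0.13, adjusted p = 5.17e-04), to 0.867 of its control level. Igtp differed by -0.01 (-0.09 to 0.07, adjusted p = 0.899), Irgm2 by -0.03 (-0.13 to 0.06, adjusted p = 0.677) and Gbp7 by -0.08 (-0.18 to 0.02, adjusted p = 0.259). Their groups overlapped, and the intervals allow small changes either way.

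The difference between the lines in their response to IL4 was tested directly. It was called for 1 member in the upward direction, Irgm1, and for 0 in the downward direction, against 3.56% and 2.57% of all tested genes. At an unadjusted p under 0.05 the counts were 2 and 0. The fall of Irgm1 with IL4 was smaller in shKDM1A cells by 0.21 (0.10 to 0.32, adjusted p = 0.0264). This call was lost without shGFP control replicate 4 (adjusted p = 0.0568), shGFP IL4 replicate 2 (0.0549) or 3 (0.0534), shKDM1A control replicate 2 (0.0502) or 3 (0.0564), or shKDM1A IL4 replicate 1 (0.0531). The difference itself stayed between 0.18 and 0.24 over all 16 libraries left out in turn. For Igtp it was 0.18 (0.07 to 0.29, adjusted p = 0.052), which did not pass. It did pass without shGFP control replicate 1 (0.0437) or shKDM1A control replicate 3 (0.0394). For Irgm2 the difference was 0.11 (-0.03 to 0.24, adjusted p = 0.331).

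Other genes of the pathway were taken from 4 lists. Of 17 other interferon-inducible GTPases, 12 were tested. Without IL4, 6 of them were higher in shKDM1A cells (Mx2, Gbp9, Gvin1, Tgtp2, Mx1 and Gbp6, from 0.05 to 0.58) and 0 lower, with a median of 0.07, against 19.7% higher and 18.4% lower over all tested genes. At an unadjusted p under 0.05 there were 7 and 0. With IL4, 5 were higher and 0 lower, against 20.9% and 19.8%, and the unadjusted counts were 7 and 0. Mx2, a dynamin-like antiviral GTPase, was 6.31, 6.26, 6.34 and 6.34 in shGFP control and 6.91, 6.88, 6.87 and 6.91 in shKDM1A control cells. Its difference was 0.58 (0.50 to 0.66, adjusted p = 2.33e-09) without and 0.62 (0.54 to 0.69, adjusted p = 1.07e-09) with IL4. With IL4, Mx2 fell by 0.20 in shGFP and fell by 0.16 in shKDM1A cells. In shGFP cells a second gene of the list, 9930111J21Rik2, was lower too (named after its values were seen). The 2 of 12 lower in shGFP and 1 of 12 in shKDM1A cells, 16.7% and 8.33%, lay near the 13.7% and 13.5% of all tested genes. No gene of this list was called for a difference in IL4 response, 0 also at an unadjusted p under 0.05 in limma.

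Interferon receptor signalling holds the receptors, kinases and factors upstream of the members. Of 24 genes 21 were tested, and without IL4 14 were higher in shKDM1A cells and 4 lower (66.7% and 19.0%, against 19.7% and 18.4% of all tested genes), with a median of 0.15. With IL4, 10 were higher and 5 lower (47.6% and 23.8%, against 20.9% and 19.8%), with a median of 0.06. The shares that were lower lay near those of all genes. Stat2, a part of the factor that binds ISREs, rose most of this list, from 9.53, 9.47, 9.46 and 9.41 in shGFP control to 10.04, 9.97, 10.02 and 10.03 in shKDM1A control cells. The difference was 0.55 (0.49 to 0.61, adjusted p = 1.52e-10) without IL4 and 0.60 with it. Its partner Irf9 was 0.42 higher without and 0.56 higher with IL4. Irf1 was 0.32 (adjusted p = 1.92e-06) higher without IL4, and is named here after its values were seen. The largest falls were those of Ifngr1, the ligand-binding chain of the interferon-γ receptor, at -0.17 (adjusted p = 2.98e-04) without IL4 and of Socs1, an inhibitor of receptor-bound kinases, at -0.17 (adjusted p = 0.0181) with IL4. Without IL4 Socs1 was among the genes that rose, at 0.17 (adjusted p = 0.019). Of the ligands, Ifng was listed at 0 in all 16 libraries and Ifnb1 lay between -0.20 and -0.18, so neither was tested.

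With IL4, Socs1 rose most of the signalling genes in shGFP cells, by 0.70 (0.59 to 0.82, adjusted p = 3.03e-08), and Irf8, a macrophage interferon regulatory factor, fell most, at -0.36 (adjusted p = 1.67e-07). In shGFP cells 7 were higher and 4 lower with IL4 (33.3% and 19.0%, against 13.1% and 13.7% of all tested genes). In shKDM1A cells 8 were higher and 6 lower (38.1% and 28.6%, against 13.6% and 13.5%), led by Jak2 at 0.41 and Irf8 at -0.31. The IL4 response differed between the lines for Irf9 (0.14, adjusted p = 0.0182) and Ifngr2 (0.13, adjusted p = 0.0165, named after its values were seen), both upward, and for Socs1 downward (-0.33, adjusted p = 0.0149). These 2 and 1 of 21 genes are 9.52% and 4.76%, against 3.56% and 2.57% of all tested genes. For Irf9 this was a fall of 0.18 in shGFP cells and a value of -0.04 (adjusted p = 0.286) in shKDM1A cells.

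Genes that target the GTPases to vacuoles or act after them, among them the ATG8 conjugation machinery and inflammasome parts, formed a further list. Of 22 tested, 9 were higher in shKDM1A cells without IL4 and 4 lower (40.9% and 18.2%, against 19.7% and 18.4% of all tested genes), with a median of 0.08. With IL4, 10 were higher and 3 lower (45.5% and 13.6%, against 20.9% and 19.8%), with a median of 0.07. The shares that were lower were thus no larger than those of all genes. Rnf213, a ubiquitin ligase of bacterial surfaces, rose most, by 0.66 (0.40 to 0.92, adjusted p = 3.86e-04) without IL4 and 0.65 with it. The largest falls were those of Aim2, a DNA sensor, at -0.29 (adjusted p = 2.63e-05) without IL4 and of Atg16l1, a part of the conjugation machinery, at -0.16 (adjusted p = 2.41e-04) with IL4. IL4 lowered 8 of the 22 in shGFP and 4 in shKDM1A cells (36.4% and 18.2%, against 13.7% and 13.5% of all tested genes) and raised 0 in either, with 0 and 2 higher at an unadjusted p under 0.05. Sqstm1, an autophagy receptor, fell most, at -0.35 and -0.46. The IL4 response differed upward for 1 of the 22, the ATG8 protein Gabarap (0.15, adjusted p = 0.02), and downward for 1, Lgals8, a sensor of damaged vacuoles (-0.18, adjusted p = 0.0195). These are 4.55% of the list each, near the 3.56% and 2.57% of all tested genes.

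For comparison, all 18 type I interferon antiviral effectors were tested and all 18 were higher in shKDM1A cells in both comparisons, against 19.7% of all tested genes without IL4 and 20.9% with it. They ranged from 0.35 to 2.23 without IL4 and from 0.33 to 2.30 with it. Their medians of 0.96 and 1.11 exceeded the member median of 0.27 in both. Members and effectors were not matched for level, and how far the scale of the values enters was not tested. Irf7, a factor that amplifies type I interferon, was highest, at 2.23 (adjusted p = 1.31e-18) and 2.30 (adjusted p = 4.51e-19). IL4 lowered 11 of the 18 in shGFP and 6 in shKDM1A cells (61.1% and 33.3%, against 13.7% and 13.5% of all tested genes) and raised 0 in either, with 0 and 1 higher at an unadjusted p under 0.05. Ifi44 fell most, at -0.48 and -0.28. The IL4 response differed upward for 5 of them (27.8%) and downward for 0, against 3.56% and 2.57% of all tested genes, with 10 and 1 at an unadjusted p under 0.05. Usp18, a brake on type I receptor signalling, had the largest difference, 0.33 (0.23 to 0.42, adjusted p = 3.93e-04).

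**Figure D5:**
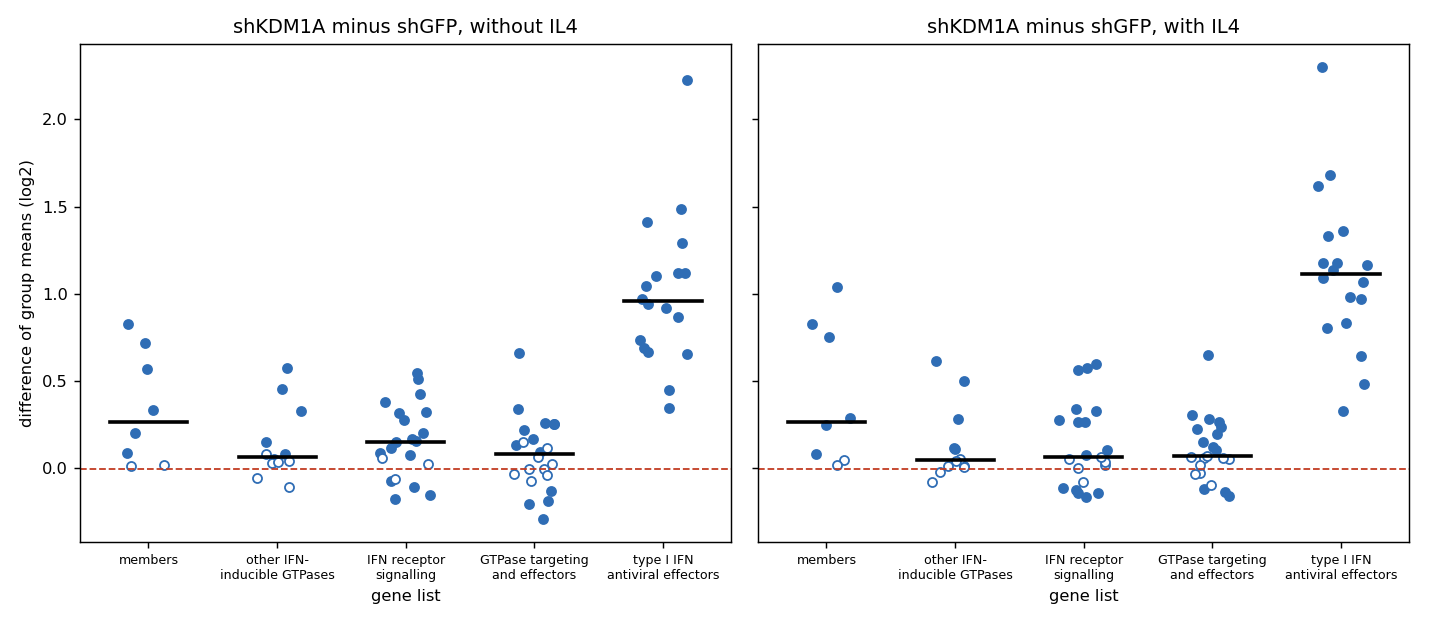
Differences between shKDM1A and shGFP cells on the log2 scale (y axis) for each tested gene of the members and of 4 gene lists (x axis), without IL4 (left) and with IL4 (right). Filled points had an adjusted p under 0.05, black lines are list medians and the dashed line is the median of all tested genes. Members have a median of 0.27 in both panels, and all 18 antiviral effectors lie above 0.

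The 5 genes outside the family whose values followed the members most closely over the 16 libraries were Adpgk, Tfrc, Cmpk2, Me1 and Tapbp. Pearson's r with the mean of the standardised member values was 0.985 to 0.988, as a description, since the libraries fall into separate sets by line. Cmpk2, a mitochondrial nucleotide kinase, belongs to the antiviral list and was 1.12 higher in shKDM1A cells without IL4 and 1.33 with it. Tapbp, which loads peptides onto MHC class I, was 0.63 and 0.67 higher, and Tfrc, the transferrin receptor, 0.76 and 0.84. Adpgk, a glucokinase that uses ADP, was 0.41 and 0.45 higher, and Me1, the cytosolic malic enzyme, 0.37 and 0.47.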

How the data were processed

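RNA-seq of RAW cells was analysed in 16 libraries, 4 per group, grouped by their labels. The submitters' processing notes name HISAT2, Bowtie2, HOMER and the build mm9. Per the file headers, the authors counted exon tags with HOMER on both strands, condensed to 1 row per gene, so reads of overlapping genes are not separated. Each library has deposited log2 values. How they were transformed is not given in the sources used here, and as they are not counts, no count model was fitted. Columns of the authors' comparisons (fold changes on a log2 scale with raw and adjusted p-values; 9 for RAW cells and 12 for BMDMs, the only measurements in the BMDM table) were not used.

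The 12905 genes that reached a value of 1 in 4 or more libraries were fitted with limma 3.58.1 in R 4.3.3 (lmFit and eBayes, 4 group means, 5 contrasts), with Benjamini-Hochberg adjustment per contrast over all genes and calls at an adjusted p under 0.05. Tests are two-sided, and intervals are 95%. The fit was tested on simulated normal values with independent libraries. That cannot show what the deposited scale or technical replicates do to the calls. The study states in general that experiments used biological replicates, but the labels do not tie these libraries to separate cultures, so p-values measure only the spread between libraries, which may be technical. Levels between genes are per 1000 bases of the table's transcript length.

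The members and lists were chosen with earlier results of these data known. Beside members and Kdm1a, the rule named the called gene with the largest change each way per list and comparison and the 5 genes correlating best with the members (Pearson). Promoters are RefSeq's (GRCm38.p6). Alternatives were no filter, a minimum of 5, median centring, quantile normalization, only the groups compared, a replicate block, a trended prior, a log2 limit of 0.5 and leaving out each library. One more, no filter but without genes at 0 in every library, was added after seeing the data. One gene of the signalling list is not reported here by name.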

Additional observations from a re-analysis of the deposited data

Results flagged for a closer look

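Irgm1 had a smaller fall with IL4 in shKDM1A than in shGFP cells, with a difference of 0.21 on the log2 scale (adjusted p = 0.0264, limma), which singled it out as an effect that differs between groups. The call was lost without any 1 of 6 of the 16 libraries and with no filter on low values (adjusted p = 0.0831). The means fell from 9.95 to 9.53 in shGFP and from 10.77 to 10.57 in shKDM1A cells.

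A single library stood apart in 2 of 44 sets of 4 libraries (the 10 members and Kdm1a in 4 groups), by the gap to the nearest library divided by the range, above Dixon's critical value for 4 samples. Chance flags about 1 in 20 such sets. Gbp4 was 0.57 in shGFP IL4 replicate 4 and 0.55 in the other libraries of the group. Tgtp1 was -1.16 in shKDM1A control replicate 3 and -1.18 in the others. Neither gene passed the filter on low values.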

How the results depend on the processing

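Between the lines, 6 members were called without IL4 and 6 to 7 with IL4 over the scalings, fits and left-out libraries run, 5 in each with a minimum value of 5, which removes Gbp2, Gbp5 and Iigp1 from the test, and 3 in each when a log2 difference over 0.5 was also required. That limit left 0 for IL4 in shGFP, IL4 in shKDM1A and the difference in IL4 response. With libraries left out, the counts were 2 to 3 for IL4 in shGFP, 1 for IL4 in shKDM1A and 0 to 2 for the difference in IL4 response. The last count was 0 with no filter, where Irgm1 had an adjusted p of 0.0831, and 2 (Irgm1 and Igtp) with a minimum value of 5, median centring or quantile normalization, where Igtp had an adjusted p of 0.0463, 0.0406 and 0.0361. With no filter Irgm2 was not called for IL4 in shGFP cells (adjusted p = 0.096, or 0.0563 without genes at 0 in every library). Gbp5 passed with IL4 between the lines under median centring (0.0431) and a trended prior (0.03).

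Of 937 recomputed member differences, 22 changed sign, none of them called in the fit reported. Under median centring and quantile normalization these were Igtp for IL4 in shKDM1A (0.00112 and 0.0123) and Gbp2 for the difference in IL4 response (0.00403 and 0.00885), and under quantile normalization Iigp1 for that difference (-4.3e-04). With libraries left out, sign changes occurred in these ranges. For IL4 in shGFP, Gbp3 ranged from -0.032 to 0.0141. For IL4 in shKDM1A, Gbp2 ranged from -0.00652 to 0.0317, Gbp5 from -0.00229 to 0.0255, Irgm2 from -0.0600 to 0.00513 and Igtp from -0.0325 to 0.014. For the difference in IL4 response, Gbp2 ranged from -0.0283 to 0.00987 and Iigp1 from -0.00448 to 0.0103. The cause was not tested.

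Calls over all genes fell with the limit of 0.5 to 337 and 319 for the lines without and with IL4, 174 and 141 for IL4 in shGFP and shKDM1A, and 17 for the difference, which was 431 with no filter, against 4927, 5255, 3466, 3497 and 791. The largest correlation among libraries with the same number was 0.27, the lowest -0.34, with 3 of 24 pairs over 0.1. Libraries with different numbers were not compared, so whether the number marks a pairing is not settled. With the replicate block 6, 6, 3, 1 and 1 members were called, in the order of the comparisons above, the same counts as without it. A fit with only the groups compared gives no value for the difference in IL4 response, which needs all 4 groups. The small spread of weak genes on the deposited scale may limit what can be seen of Gbp5, Iigp1, Gbp4 and Tgtp1. How far it does was not tested.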
